A study of Mus musculus with 2 samples.

Results

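Macrophage scavenger and uptake receptors were examined as 10 genes, Marco, Msr1, Cd36, Cd68, Mrc1, Scarb1, Cd163, Stab1, Mertk and Clec7a. Members were taken as every non-control probe set that the platform annotation assigns to exactly 1 gene with one of these names, which gave 18 probe sets for 10 of the 18193 genes with a probe set. Expression was measured on 2 Affymetrix arrays, 1 for bone marrow cells of wildtype mice and 1 for those of Cpdm mice. Cpdm is a spontaneous mouse mutation that removes functional SHARPIN, a component of the enzyme complex that builds linear ubiquitin chains downstream of the TNF receptor. Both groups were unsorted marrow cells grown for 10 days with ascorbic acid at 50 µg/ml and β-glycerophosphate at 10 mM, a medium that favours osteoblasts, and had no further treatment. Neither the age and sex of the mice nor the number behind each culture is stated in the sources used here. Since each genotype had 1 array and no replicate, the values below describe those arrays and no p-value is given.

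Uptake receptors are the proteins with which macrophages bind and internalise particles, modified lipoproteins, microbes and dying cells. Scavenger receptors bind polyanionic ligands such as oxidised lipoproteins and bacterial surfaces, C-type lectins bind sugars, and the TAM receptor kinases bind the phosphatidylserine of apoptotic cells through the bridging proteins GAS6 and protein S. In bone marrow, resident macrophages use such receptors to clear apoptotic cells and expelled erythroid nuclei. Several of these receptors are not restricted to macrophages: CD36 and SCARB1 are also made by adipocytes and endothelial cells, and STAB1 and MRC1 by sinusoidal endothelium.

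All 10 genes were measured, meaning that the brightest probe set reached the floor in at least 1 array. The floor is the signal at the 40th percentile of the non-control probe sets, which was 18.5 for Cpdm and 18.7 for wildtype, and any signal under it was raised to it. In the Cpdm culture 4 receptors were at least 2-fold higher than in wildtype, Marco, Stab1, Mertk and Msr1, and none was at least 2-fold lower. Among all 14055 measured genes 5.84% were at least 2-fold higher and 5.98% at least 2-fold lower. At a size of 1.5-fold, 6 receptors were higher, beside 15.7% of all measured genes. The 6 receptors that did not reach 2-fold were Clec7a, Mrc1, Cd36, Cd68, Cd163 and Scarb1, and the log2 ratio of Cpdm over wildtype was above 0 for all 10, beside 52.4% of all measured genes. Marco and Cd163 passed the floor through the Cpdm array alone, which fixes the sign of their ratio. Of the 8 receptors above the floor in both arrays, 3 were at least 2-fold higher and 8 had a ratio above 0, beside 5.72% and 53.0% of the 12395 genes above it in both. The median log2 ratio of the 10 receptors was 0.71, or 1.63-fold, against 0.03 for all measured genes. Receptor by receptor the ratio ran from 0.18 for Scarb1 to a bound of 3.11 for Marco, so the genes differed widely in size.

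Error could be judged only within the array pair. The 18 hybridisation spike-in probe sets, transcripts added in equal amount to each sample, had log2 ratios between -0.22 and 0.20. Pairs of probe sets for the same gene, over 5250 genes, disagreed with a robust SD, on the log2 scale and per probe set, of 0.32. After the floor, 4 of the 10 receptors read within 1 such SD of 0, beside 46.8% of measured genes. They were Cd36, Cd68, Scarb1 and Cd163. For Cd163 the value is only a lower bound, and without the floor its log2 ratio was 1.32, so it cannot be placed. The other 6 lay more than 2 such SD above 0, beside 13.8% of measured genes, and Marco did so by its bound. Neither yardstick holds the spread that further mice, cultures or RNA extractions would add. On the array side, 18S ribosomal RNA, read by 3 control probe sets, differed by -2.37 to -3.75 on the log2 scale, and the female transcript Xist was higher in the Cpdm array at 1113 against 247 while the Y-linked Uty was lower at 42.9 against 162. Their part in the receptor differences was not tested, and with 1 array a genotype they cannot be told apart from genotype.

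**Figure D1:**
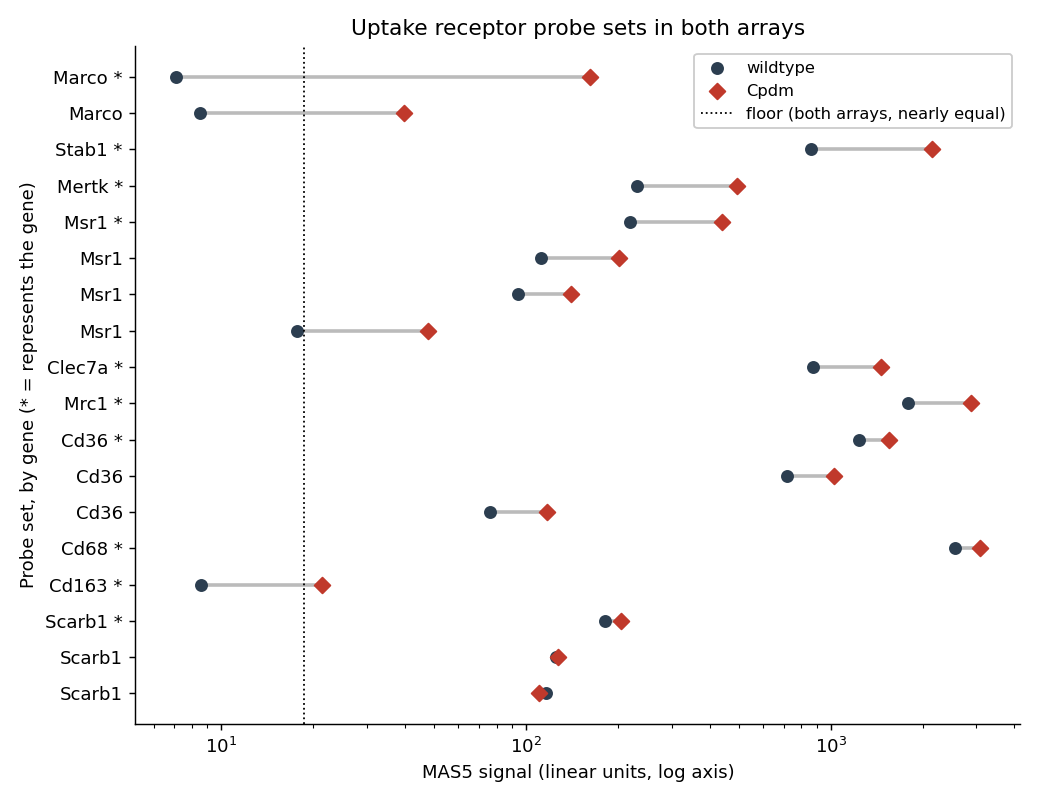
MAS5 signal of all 18 probe sets of the 10 uptake receptors in the wildtype array (circles) and the Cpdm array (diamonds) on a log axis, ordered by log2 ratio, with the floor as a dotted line. The Cpdm signal is the higher one for 17 of 18 probe sets, and the wildtype signals of Marco, Cd163 and the dimmest Msr1 probe set lie left of the floor.

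Proximal promoters are shown here for receptors with a large difference and for Cd68, which was near equal, because genes of factors known to bind such motifs (Spi1, Pparg and Nr1h3) were measured on the same arrays. Each sequence is the 250 bases before an annotated transcript start of the gene, which need not be its outermost start, read 5′ to 3′ on the strand of the gene, from RefSeq on GRCm38.p6. Capitals mark matches on either strand to GAGGAA, the core bound by PU.1 (Spi1), the lineage factor of macrophages, to TGANTCA, the AP-1 site, and to AGGTCA, the half-site of nuclear receptors such as PPARγ and LXR. The first 3 windows belong to receptors at least 2-fold higher in Cpdm, and the last belongs to Cd68. The window of Marco lies at chr1:120505025-120505274 on the minus strand, that of Stab1 at chr14:31168642-31168891 on the minus strand, that of Mertk at chr2:128698665-128698914 on the plus strand and that of Cd68 at chr11:69666171-69666420 on the minus strand.
Marco: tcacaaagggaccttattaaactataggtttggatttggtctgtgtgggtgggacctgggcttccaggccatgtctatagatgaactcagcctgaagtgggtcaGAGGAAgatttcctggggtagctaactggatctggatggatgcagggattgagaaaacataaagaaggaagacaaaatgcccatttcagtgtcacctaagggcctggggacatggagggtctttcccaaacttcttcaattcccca
Stab1: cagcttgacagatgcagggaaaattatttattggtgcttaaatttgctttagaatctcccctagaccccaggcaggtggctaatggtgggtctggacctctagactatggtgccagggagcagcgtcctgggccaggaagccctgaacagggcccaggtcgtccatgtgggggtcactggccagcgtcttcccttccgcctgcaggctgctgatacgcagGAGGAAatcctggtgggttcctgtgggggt
Mertk: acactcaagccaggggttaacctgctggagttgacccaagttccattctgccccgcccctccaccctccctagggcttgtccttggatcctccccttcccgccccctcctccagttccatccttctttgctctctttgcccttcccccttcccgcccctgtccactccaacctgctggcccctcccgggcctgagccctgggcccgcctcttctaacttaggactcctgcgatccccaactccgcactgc
Cd68: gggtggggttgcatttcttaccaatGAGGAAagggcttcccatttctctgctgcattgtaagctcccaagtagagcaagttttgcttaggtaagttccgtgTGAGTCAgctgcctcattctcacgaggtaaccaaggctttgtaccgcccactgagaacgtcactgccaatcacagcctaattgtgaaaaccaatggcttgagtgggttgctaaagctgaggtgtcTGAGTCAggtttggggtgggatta

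The promoter table held windows for 8 of the 10 receptors, all but Msr1 and Scarb1, in 9 windows, since Clec7a had 2 overlapping ones from neighbouring transcript starts. GAGGAA was present in the windows of 5 of them, Marco, Cd68, Mrc1, Stab1 and Clec7a, and in 23.3% of all 32851 windows of this length. It began 146 bases before that transcript start in Marco and 30 bases before it in Stab1. TGANTCA was found in Cd68 alone among the 8, at 2 places, and in 6.75% of all windows. AGGTCA was found on the other strand of the Cd36 window and in 14% of all windows. Within a window, no match to one motif overlapped a match to another. Windows with the PU.1 core belonged both to receptors at least 2-fold higher (Marco, Stab1) and to the near-equal Cd68, and the Mertk window held none of the 3 motifs.

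The class A scavenger receptors are trimeric proteins with a collagen-like stalk. Marco, which binds bacteria and unopsonised particles, read 162 in Cpdm and 7.09 in wildtype with its brighter probe set, and 39.6 against 8.54 with the other. Both wildtype signals lay below the floor and both Cpdm signals above it, so Marco was detected above the floor in the Cpdm culture alone. Against the floor this is at least 8.64-fold higher with the brighter probe set and at least 2.12-fold with the other, whose identifier marks it as able to bind related transcripts. Msr1, the founding macrophage receptor for acetylated lipoproteins, read 440 against 219 with its brightest probe set, 201 against 112 and 140 against 93.9 with the next ones, and 47.8 against 17.7 with the dimmest. All 4 were higher in the Cpdm array, by 2.01-fold, 1.80-fold, 1.49-fold and at least 2.55-fold. The brightest probe set thus sits on the 2-fold line, and Msr1 passed it under 5 of 9 other processing settings.

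The class B receptors are hairpin proteins that bind lipoproteins and fatty acids. Cd36, which takes up oxidised LDL, long-chain fatty acids and apoptotic cells, read 1547 against 1241, 1027 against 719 and 117 against 76.1. Each of the 3 probe sets was higher in the Cpdm array, by 1.25-fold, 1.43-fold and 1.54-fold. Scarb1, the HDL receptor, read 205 against 181, 127 against 126 and 110 against 116. These differ by at most 1.13-fold and in both directions, and Scarb1 was the only receptor whose probe sets differed in sign. Cd68, a lysosomal glycoprotein of macrophages that is grouped with the class D scavenger receptors, read 3089 against 2545 with its 1 probe set, which is 1.21-fold higher. Side by side, the class A genes Marco and Msr1 had log2 ratios of at least 3.11 and of 1.01. The class B genes Cd36 and Scarb1 had log2 ratios of 0.32 and 0.18. Other measured scavenger receptor genes did not follow this split, and a difference between classes was not tested. Scara5, also class A, had a bound of -1.90, and Scarb2, a relative of Cd36, had a log2 ratio of 0.92. Scara3 and Colec12 had log2 ratios of -0.45 and 0.37.

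The 2 remaining scavenger receptors belong to other structural classes. Stab1 encodes stabilin-1, a large multidomain scavenger receptor for SPARC and acetylated LDL. It read 2150 against 862, or 2.49-fold higher, and 2.92% of measured genes had a higher ratio. Cd163, the haemoglobin-haptoglobin receptor of resident macrophages, read 21.4 against 8.59. Its Cpdm signal was 1.16 times the floor and its wildtype signal below it, so the difference has only a bound of 1.15-fold. Each of these genes has 1 probe set, so no second reading exists.

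**Figure D2:**
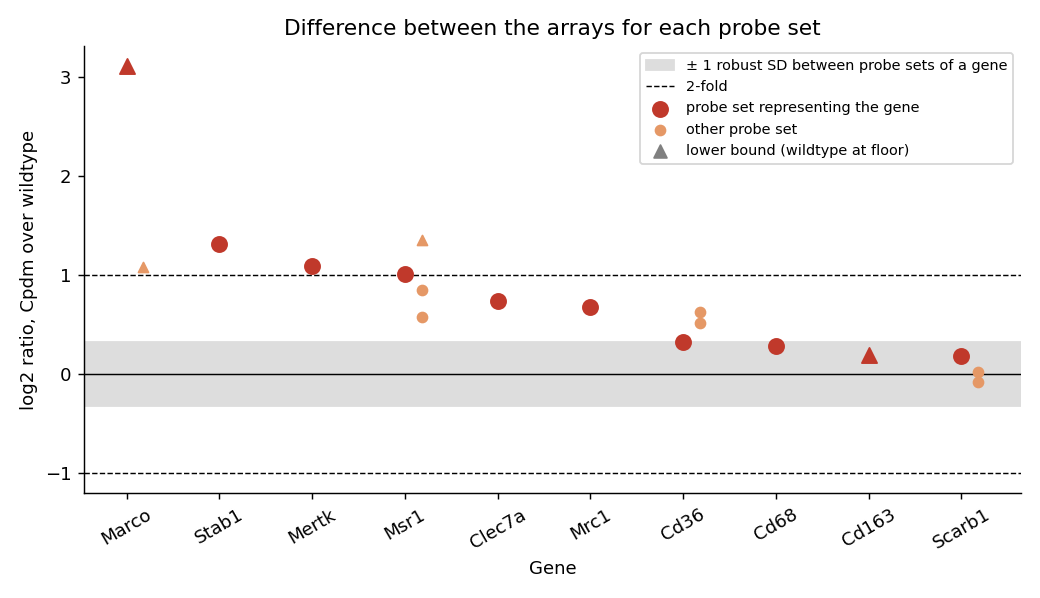
Log2 ratio of the Cpdm over the wildtype signal for each probe set of the 10 receptors, after the floor, with large red symbols for the probe set that represents the gene and small orange ones for the others. Triangles are lower bounds, dashed lines mark 2-fold and the grey band is 1 robust SD (0.32) either side of 0. Marco, Stab1, Mertk and Msr1 lie above the upper dashed line and Scarb1 has probe sets on both sides of 0.

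The lectin receptors were higher by less than 2-fold. Mrc1, the mannose receptor CD206, read 2870 in Cpdm and 1796 in wildtype, or 1.60-fold higher. Clec7a, which encodes the β-glucan receptor Dectin-1, read 1454 against 872, or 1.67-fold higher. Both genes have 1 probe set. Their log2 ratios, 0.68 and 0.74, were exceeded by 12.9% and 11.2% of measured genes. In the list of other phagocytic C-type lectins, 5 of 11 measured genes reached 2-fold higher and 1 reached 2-fold lower. The shares over all measured genes were 5.84% and 5.98%. The median log2 ratio of that list was 0.93. Clec4e, which encodes Mincle, a receptor for mycobacterial cord factor and dead cells, read 232 against 37.6, or 6.17-fold higher. Clec4a3 was 2.75-fold and Clec10a, a galactose lectin, 2.64-fold higher, and Clec4n (Dectin-2) and Clec5a were the others past 2-fold. Mrc2, the collagen-binding relative of Mrc1 that stromal cells express, went the other way at 190 against 424.

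Genes that carry the Dectin-1 signal were compared as well. All 8 measured members of that list had log2 ratios above 0, with a median of 0.60, and 1 of them reached 2-fold. Of all measured genes 52.4% were above 0 and 5.84% were at least 2-fold higher. Syk, the kinase recruited by Dectin-1, read 368 against 83.8, or 4.39-fold higher. Its other measured probe sets had log2 ratios of 1.28 and -0.35, the latter a bound with the Cpdm signal below the floor. The kinase gene Prkcd, at 1.88-fold, and the exchange factor gene Vav1, at 1.60-fold, came next, with log2 ratios of 1.49 and 1.52 with their other probe sets. Card9 was not analysed here. The count past 2-fold was 3 when probe sets were averaged.

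Mertk, the TAM kinase with which macrophages engulf apoptotic cells, read 492 in Cpdm and 230 in wildtype. It was 2.14-fold higher with its 1 probe set, and 4.77% of measured genes had a higher ratio. The related kinase gene Axl read 657 against 175, or 3.75-fold higher, and had a log2 ratio of 0.36 with its other probe set. Tyro3 was close to the floor in both arrays, at 18.6 against 21.2. The bridging ligands were measured too: Gas6 read 2493 against 2164 and Pros1, which encodes protein S, 423 against 218. Pros1 was thus 1.94-fold higher, and Gas6 was 1.15-fold higher with a log2 ratio of 0.71 with its other probe set. Over the whole list for apoptotic cell uptake, Axl was the 1 of 16 measured genes past 2-fold, and the median log2 ratio was 0.18. Of all measured genes 5.84% were at least 2-fold higher, a share near that of this list. Itgb5, a subunit of an integrin for opsonised apoptotic cells, was 1.96-fold higher, and its other probe sets had log2 ratios from 0.54 to 1.59. The engulfment genes Elmo1, Dock1 and Rac1 had log2 ratios of -0.05, 0.05 and 0.23, with a value of -0.99 for the other Elmo1 probe set and -0.17 for that of Rac1.

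**Figure D3:**
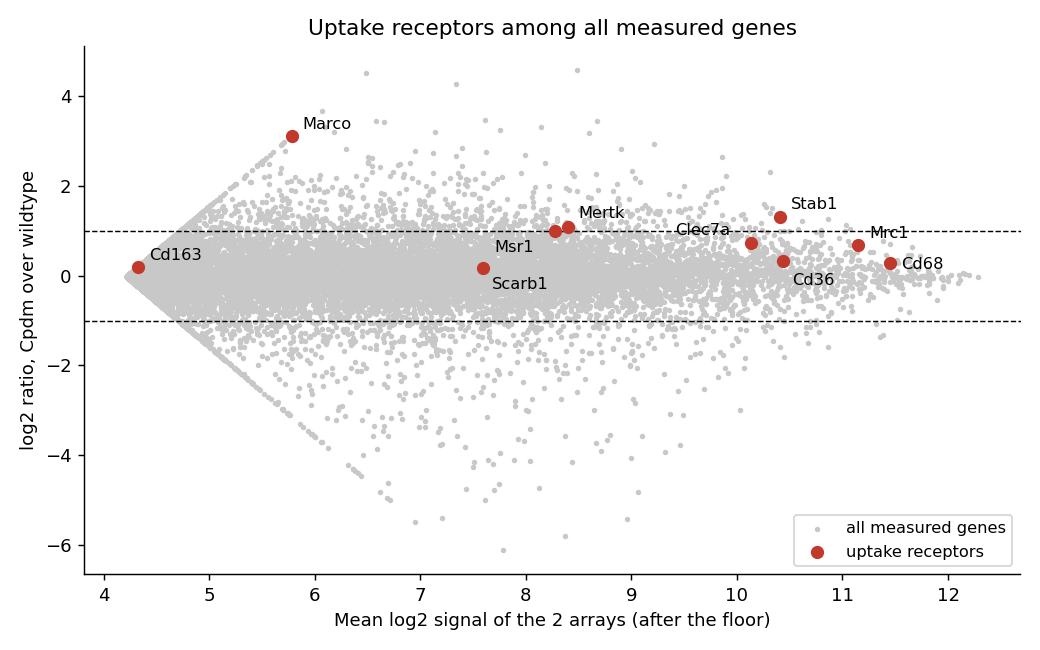
Log2 ratio of Cpdm over wildtype against the mean log2 signal of both arrays for all 14055 measured genes (grey) and the 10 uptake receptors (red), with dashed lines at 2-fold. All 10 receptors lie above 0. The wildtype signal is at the floor for Marco and Cd163, of which only Cd163 lies near the left edge.

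Scavenger receptors outside the 10 did not share one direction. Among 11 measured genes, 1 reached 2-fold higher, 1 reached 2-fold lower and 9 reached neither. Of all measured genes 5.84% reached 2-fold higher and 5.98% reached 2-fold lower. The median of their log2 ratios was 0.22. Cxcl16, which encodes a membrane-bound chemokine that also takes up oxidised LDL, read 578 against 243, or 2.38-fold higher. Scarb2, a lysosomal relative of Cd36, was 1.90-fold higher, with a log2 ratio of 0.11 with its other probe set. Scara5, a class A receptor for ferritin that stromal cells express, read 4.22 in Cpdm, which is below the floor, and 69.0 in wildtype, or at least 3.73-fold lower. Its other probe set had a log2 ratio of -0.68. Olr1 and Ager lay below the floor in both arrays.

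Genes that handle lipid after uptake had a median log2 ratio of 0.01. Among 13 measured genes, 1 reached 2-fold higher and 1 reached 2-fold lower, beside 5.84% and 5.98% of all measured genes. Npc1, the lysosomal cholesterol exporter, was 2.09-fold higher at 454 against 217. Vldlr, a receptor for triglyceride-rich lipoproteins, was 17.9-fold lower at 43.2 against 772. Its other probe sets had log2 ratios from -3.91 to -1.48, most of them bounds with the Cpdm signal below the floor. Lpl, the lipoprotein lipase gene, was 1.64-fold lower.

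Regulators known to act on receptor genes were also measured. Among 18 measured genes 4 reached 2-fold higher and none reached 2-fold lower, beside 5.84% and 5.98% of all measured genes. The median of the log2 ratios was 0.37. Spi1, which encodes PU.1, read 410 against 194, or 2.11-fold higher. Il4ra, the receptor for IL-4 that raises Mrc1 in macrophages, was 3.51-fold higher, with log2 ratios of 2.12 and 0.44 with its other probe sets. Irf8, a monocyte lineage factor, was 3.29-fold higher. Il10ra was 2.44-fold higher with its brightest probe set, and its other probe set went the opposite way with a log2 ratio of -1.31. The lipid-sensing nuclear receptor genes were not higher in Cpdm: Pparg read 30.2 against 52.7 and Nr1h3, which encodes LXRα, 45.9 against 53.6. Csf1r, the receptor for the macrophage growth factor CSF1, read 3199 against 2331, and its other probe sets had log2 ratios of 1.25 and 1.12.

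Macrophage and monocyte markers outside the 10 receptors, among them the Fc receptor genes Fcgr1 and Fcgr3 and the complement receptor gene Itgam, were compared in the same arrays, since an unsorted culture can hold more or fewer macrophages. Among 17 measured macrophage and monocyte genes, 5 reached 2-fold higher, none reached 2-fold lower and 15 had a log2 ratio above 0. The shares over all measured genes were 5.84%, 5.98% and 52.4%. The median was 0.46. Their summed signal was 38000 in Cpdm and 29265 in wildtype, a ratio of 1.30, against 12430 and 7962, a ratio of 1.56, for the 10 receptors. The markers Cx3cr1, Aif1 and Fcgr1 were 5.53-fold, 5.05-fold and 3.39-fold higher. The other Cx3cr1 probe set read 27.3 against 1.96, below the floor in wildtype, for a log2 ratio of at least 0.54. Lyz2, the macrophage lysozyme gene, was at 2657 against 3507. Set against the marker median, 6 receptors lay above it, and Cd36, Cd68 and Scarb1 lay below it. Cd163 cannot be placed, since its log2 ratio was a bound of 0.20 with the floor and 1.32 without it. The receptor median lay 0.24 log2 units above the marker median. Under other settings this excess ranged from 0.08, with averaged probe sets, to 0.41. In a bulk culture, more macrophages and more receptor RNA per macrophage cannot be told apart.

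Markers of the other cells that can express these receptors gave the following values. Of all measured genes 5.84% were at least 2-fold higher and 5.98% at least 2-fold lower. Of 9 endothelial genes 6, including Pecam1, Cdh5 and Lyve1, lay below the floor in both arrays. The other 3 were Esam, Kdr and Egfl7, with log2 ratios of -0.58, -0.37 and -0.06, and the summed endothelial signal was 202 in Cpdm and 254 in wildtype. Of the 4 measured adipocyte genes none passed 2-fold. Adipoq was at 27.3 against 17.7, the latter below the floor, and Retn at 40.6 against 47.9. The summed adipocyte signal was 1488 against 2176. Most of it came from Lpl, at 961 against 1575, and Fabp4, at 455 against 532, which are also in the list of lipid genes. In the osteoclast list none of 6 measured genes passed 2-fold. Its median log2 ratio was -0.01, and its summed signal was 2045 against 2956, of which Ctsk made up 969 against 1890. Ctsk was thus 1.95-fold lower, Itgb3 was 1.94-fold higher and Mmp9 1.37-fold lower. Acp5 was near equal at 156 against 157, as was Atp6v0d2 at 759 against 767. Oscar had log2 ratios of 0.37 and, with its other probe set, -0.40. Calcr, Dcstamp and Ocstamp lay below the floor in both arrays. Among 5 measured dendritic cell genes 1, Zbtb46, was at least 2-fold lower at 31.5 against 69.8. Siglech was at 30.8 against 19.9, Itgax at 277 against 218, and the summed signals were 413 and 388. Among 5 measured neutrophil genes 1, Ltf, was at least 2.06-fold lower, and the median log2 ratio was -0.29. Csf3r was at 193 against 110, S100a9 at 10.2 against 27.5, S100a8 at 45.1 against 47.1 and Mpo at 35.8 against 43.9. The summed signals were 303 and 282, and Csf3r was the only measured gene of the list with a log2 ratio above 0. None of the 4 measured megakaryocyte genes passed 2-fold. Their summed signals were 2733 and 2121, with Pf4 at 2531 against 1878, Gp5 at 41.6 against 65.0 and Ppbp at 30.9 against 41.8. Among osteoblast and stromal markers 6 of 8 measured genes were at least 2-fold lower and 1, Cxcl12, was at least 2-fold higher, with a summed signal of 6412 against 14158. In that list Alpl, the alkaline phosphatase gene, was 11.7-fold lower, Dmp1 was 7.91-fold lower and Phex at least 44.7-fold lower. The part of these cells in the receptor signals was not tested.

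**Figure D4:**
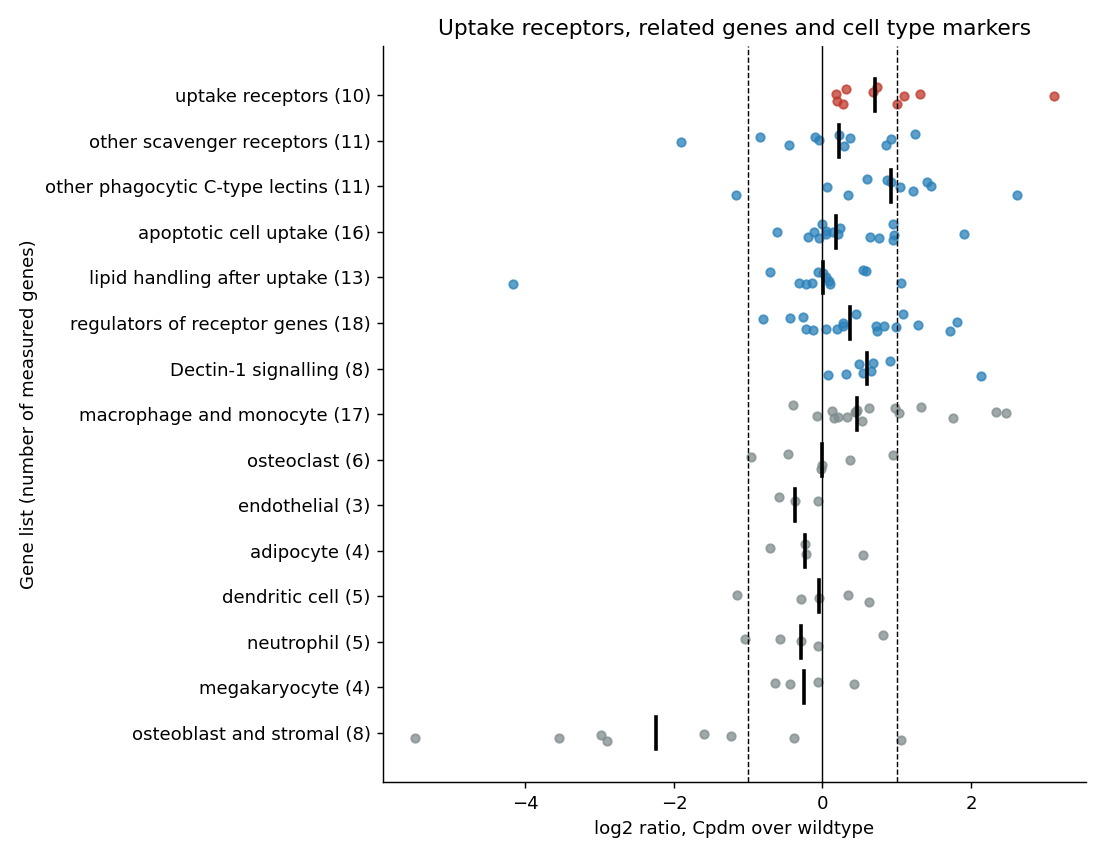
Log2 ratio of Cpdm over wildtype for each measured gene (points) of the uptake receptors (red), the related gene lists (blue) and the cell type marker lists (grey), with the median of each list as a black bar and the number of measured genes in brackets. Points are spread vertically at random for display, and dashed lines mark 2-fold. The receptor median of 0.71 lies between the medians of the C-type lectins (0.93) and of the macrophage markers (0.46), and the osteoblast and stromal median lies at -2.24.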

How the data were processed

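Probe set signals of 1 Cpdm and 1 wildtype array were deposited by the authors as linear MAS5 signal intensity values, 45101 probe sets per array. The submitters' processing notes name GCOS 1.4 and MAS5. Background settings, detection calls and the scaling target: not given in the sources used here. After trimming 2% of probe sets at each end, the mean signal was 100.001 in either array.

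Deposited signals were used without rescaling. Values under the 40th percentile of each array's non-control probe sets were set to that floor, and a ratio with 1 array at the floor is a lower bound, written "at least". For each gene the brightest probe set was used, by mean log2 signal over the arrays, and differences are log2 ratios of Cpdm over wildtype signals. Genes were counted by a fixed size of 2-fold. Levels of different genes come from different probes and were not compared gene with gene. Summed signals add different probes, so the brightest probe sets of a list weigh most in them. Of 45037 non-control probe sets 34945 carried 1 gene, 932 several and 9160 none, and Entrez identifiers matched a current RefSeq gene (GRCm38.p6) for 34741. Computation used Python 3.11.15, numpy 2.4.6, pandas 2.3.3 and matplotlib 3.10.9, and was tested on simulated data. The number of arrays limits the precision.

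The receptors and gene lists were chosen with earlier results of these data known. Named genes are all receptors, the 3 genes of each list with the largest absolute log2 ratio, and Gas6, Pros1, Axl, Tyro3, Nr1h3, Pparg, Spi1 and Csf1r; 1 further gene of that rule is not reported here. Other genes were named after their values were seen. Alternatives covered the floor, the scaling, the choice of probe set, a constant of 16 added to signals, and a 1.5-fold rule.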

Additional observations from a re-analysis of the deposited data

How the results depend on the processing

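For the 8 receptors above the floor in both arrays, all 70 log2 ratios under other settings were above 0 and moved by less than the robust SD between probe sets. The ratio of Marco ranged from 1.91 to 4.51 and that of Cd163 from 0.18 to 1.32 over the settings. The receptor median ranged from 0.69 to 0.87. The count at least 2-fold higher ranged from 3 to 5 and was 6 at 1.5-fold. Msr1 fell under the line in 4 of 9 settings. One setting left out the s, x and a probe sets, those with identifiers ending in s_at, x_at or a_at. It left 8 receptors, since Stab1 and Scarb1 have no other probe sets, and the count was then 3. The excess of the receptor median over the macrophage marker median, examined afterwards, ranged from 0.08 to 0.41. With no floor, 1741 of all genes were at least 2-fold higher and 1885 lower, against 821 and 840. The median of other scavenger receptors ranged from 0.13 to 0.30, of C-type lectins from 0.83 to 1.05, of apoptotic uptake genes from 0.04 (averaged probe sets) to 0.22, of lipid genes from -0.06 to 0.08, of regulators from 0.18 (averaged probe sets) to 0.40 and of Dectin-1 genes from 0.56 to 0.62. In the related gene lists, counts of genes past the size rule moved by over 1.5 times as follows. Beyond the settings' own construction the cause was not tested. Other scavenger receptors higher numbered 2 with the lower floor, no floor or a constant added, and 3 at 1.5-fold; those lower numbered 0 with either other floor or a constant added, and 2 with averaged probe sets or at 1.5-fold. C-type lectins higher numbered 8 at 1.5-fold. Apoptotic uptake genes higher numbered 2 with averaged probe sets or without s, x and a probe sets, and 6 at 1.5-fold. Those lower numbered 2 with the lower floor or no floor, and 1 with a constant added or at 1.5-fold. Lipid genes lower numbered 2 at 1.5-fold. Regulators higher numbered 8 at 1.5-fold; those lower numbered 1 with the lower floor, no floor or at 1.5-fold. Dectin-1 genes higher numbered 3 with averaged probe sets, 2 without s, x and a probe sets and 4 at 1.5-fold. Among the cell type marker lists, macrophage and monocyte genes higher numbered 3 without s, x and a probe sets, against 5. The osteoclast median was -0.46 with no floor, against -0.01. A count in each other marker list also moved under at least 1 setting. Signals near or below the floor limit Marco, Cd163 and Tyro3, and other named genes such as Scara5, Pparg, Adipoq, Siglech, Zbtb46, S100a9, Ltf and Mbl1. No error between cultures could be estimated. No paired analysis was possible because each genotype had 1 array.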

Other observations

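Further receptors of tissue macrophages, a list added after the arrays had been examined, gave values that the comparisons above did not use. Of 8 genes, all measured, 3 reached 2-fold higher and none reached 2-fold lower in Cpdm, beside 5.84% of all measured genes higher, with a median log2 ratio of 0.86. P2ry6, a nucleotide receptor that promotes phagocytosis, read 945 against 434. Folr2, the folate receptor of resident macrophages, read 608 against 282, and Cd84 read 1254 against 621. Vsig4, a complement receptor of resident macrophages, was 1.86-fold higher and Trem2, a lipid receptor, 1.77-fold higher. Gpnmb was near equal, at 2450 against 2780.

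Soluble opsonins and bridging proteins, also listed afterwards, had a median log2 ratio of 0.05. None of the 7 measured genes passed 2-fold in either direction. Thbs1, which encodes thrombospondin-1, a ligand of CD36, read 2157 against 2588 and had a log2 ratio of -1.11 with its other probe set. Ptx3, a pentraxin, read 305 against 294, and Fcna, a ficolin, 172 against 141. The collectin genes Sftpd and Mbl1 were at 33.9 against 26.1 and 26.6 against 22.1.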
